A study of Mus musculus with 9 samples.

Results

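The 37 genes described here encode proteins of the synaptic vesicle and of the machinery that releases and recycles it. They were listed by gene symbol, with earlier results of these libraries known, and no value in the libraries entered the rule. All 37 were among the 17482 genes of the deposited table, and all 37 passed the filter on low values, which asks for more than 0 log2 CPM in 3 or more libraries and left 15251 genes to test. CPM scales the reads of a gene to a size set for its library, which need not equal its read total. Log2 CPM is thus a level on a log scale, and a difference of 1 log2 unit is a 2-fold difference. The libraries held total RNA from mouse tumour tissue that the labels call MB, taken on postnatal day 8 or 9. The YSGr group (n = 3) consisted of rescued and the YSGnr group (n = 3) of non-rescued fYap1;fSMO-M2;hGFAPcre mice, and the SG group (n = 3) of fSMO-M2;hGFAPcre mice. All 3 groups therefore carried the conditional SMO-M2 allele, an active form of the Hedgehog pathway protein Smoothened, with the hGFAPcre driver, and YSGr and YSGnr carried a floxed Yap1 allele in addition. hGFAPcre expresses Cre recombinase from a human GFAP promoter, which is active in neural progenitors of more than a single lineage. The labels do not define rescue, and give neither the sex of the animals nor whether each library came from an animal of its own.

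A synaptic vesicle is loaded with neurotransmitter by a vesicular transporter, is docked and primed at the active zone, and fuses with the plasma membrane when calcium binds a synaptotagmin and the SNARE proteins of vesicle and membrane zip together. NSF and its adaptors then take the SNARE complex apart, and dynamin, amphiphysin and synaptojanin help to retrieve the vesicle membrane. In the cerebellum, granule neurons and unipolar brush cells release glutamate while Purkinje cells, stellate, basket and Golgi cells release GABA, and dividing granule neuron progenitors have no such terminals.

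Levels of Yap1, the floxed gene, were 4.44, 3.31 and 2.79 log2 CPM for YSGr, 2.79, 2.57 and 1.99 for YSGnr and 5.04, 5.11 and 5.03 for SG, so that every YSGr and YSGnr library lay below every SG library. YSGnr replicate 1 was the shallowest library with 9.66 M (mega) reads, of which 3.53 M lay outside Yam1 and Lars2, transcripts singled out for their values, and the other 8 libraries held 17.3 to 29.2 M. The deposited values of YSGnr replicate 1 are scaled to a size of 3.92 M, so its CPM values are not shares of its 9.66 M reads. In that library the members were counted with 9.50 reads (Sv2c) to 2074 reads (Cplx2), so its low members are the least precise values. Xist was high and the Y-linked Ddx3y was at its floor in all 3 YSGr libraries and in YSGnr replicate 1, and the reverse held in the other two YSGnr libraries and in all 3 SG libraries. In YSGr against SG, the group and this sex-linked split cannot be told apart. In YSGr against YSGnr the group and the split coincide except for YSGnr replicate 1. That library was the highest of the YSGnr libraries in 25 members, and it was also the shallowest. The part that the sex-linked split had in the members' differences was not tested. YSGr replicate 3 stood apart from YSGr replicates 1 and 2: Atoh1, the transcription factor that defines granule neuron progenitors, was at 3.89, 3.34 and 6.89 log2 CPM in YSGr replicates 1, 2 and 3, against 5.89, 6.76 and 6.15 in SG.

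Most of the 37 genes were higher in the YSGr libraries. In YSGr against SG, 18 of the 37 rose and 0 fell at an adjusted p below 0.05 (limma), where 6.58% of all 15251 tested genes were called higher and 3.97% lower. At an unadjusted p below 0.05, 26 members were higher and 0 lower, where 2174 of the 15251 tested genes were higher and 1813 lower. The median member differed by 0.95 log2 units, against -0.024 over all tested genes, and 35 of 37 differences were above 0, the exceptions being Sv2c and Cplx2. In 24 members every YSGr library lay above every SG library, which held for 19.5% of tested genes, and in 1 member, Cplx2, every YSGr library lay below, which held for 17.3%. YSGr replicates 1 and 2 each exceeded all SG libraries in 35 members, and YSGr replicate 3 in 24.

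In the non-rescued tumours the members' differences from SG lay on both sides of 0. In YSGnr against SG, 1 of the 37 rose (Slc17a7) and 0 fell, where 1.19% of tested genes were called higher and 2.17% lower (limma). At an unadjusted p below 0.05, 4 were higher and 2 lower, where 1692 of the 15251 tested genes were higher and 2217 lower. The median member differed by -0.076 log2 units, against -0.009 over all tested genes, with 14 differences above 0 and 23 below. All YSGnr libraries lay above all SG libraries in 9 members (Syt4, Syt11, Syp, Sv2a, Slc17a6, Slc17a7, Rab3a, Cplx1 and Amph), and 16.9% of tested genes did so. They lay below in 5 members (Snap25, Syt1, Sv2c, Cplx2 and Synj1), and 21.3% of tested genes did so.

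Set directly against each other, YSGr exceeded YSGnr in 36 of 37 members, with a median of 1.17 log2 units against 0.007 over all tested genes. Of the 37, 18 rose and 0 fell (limma), where 5.09% of tested genes were called higher and 0.879% lower. At an unadjusted p below 0.05 the counts were 30 and 0, where 2942 of the 15251 tested genes were higher and 2228 lower. The libraries did not overlap, with YSGr higher, in 25 members (15.0% of tested genes), and with YSGr lower in 0 members (7.46%). This comparison shares its YSGr libraries with YSGr against SG, and YSGnr against SG shares SG, so the 3 counts are not independent. The spread used for YSGr against YSGnr also draws on the SG libraries. Fitted on its own 6 libraries, this comparison called 0 of all 15251 tested genes.

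**Figure D1:**
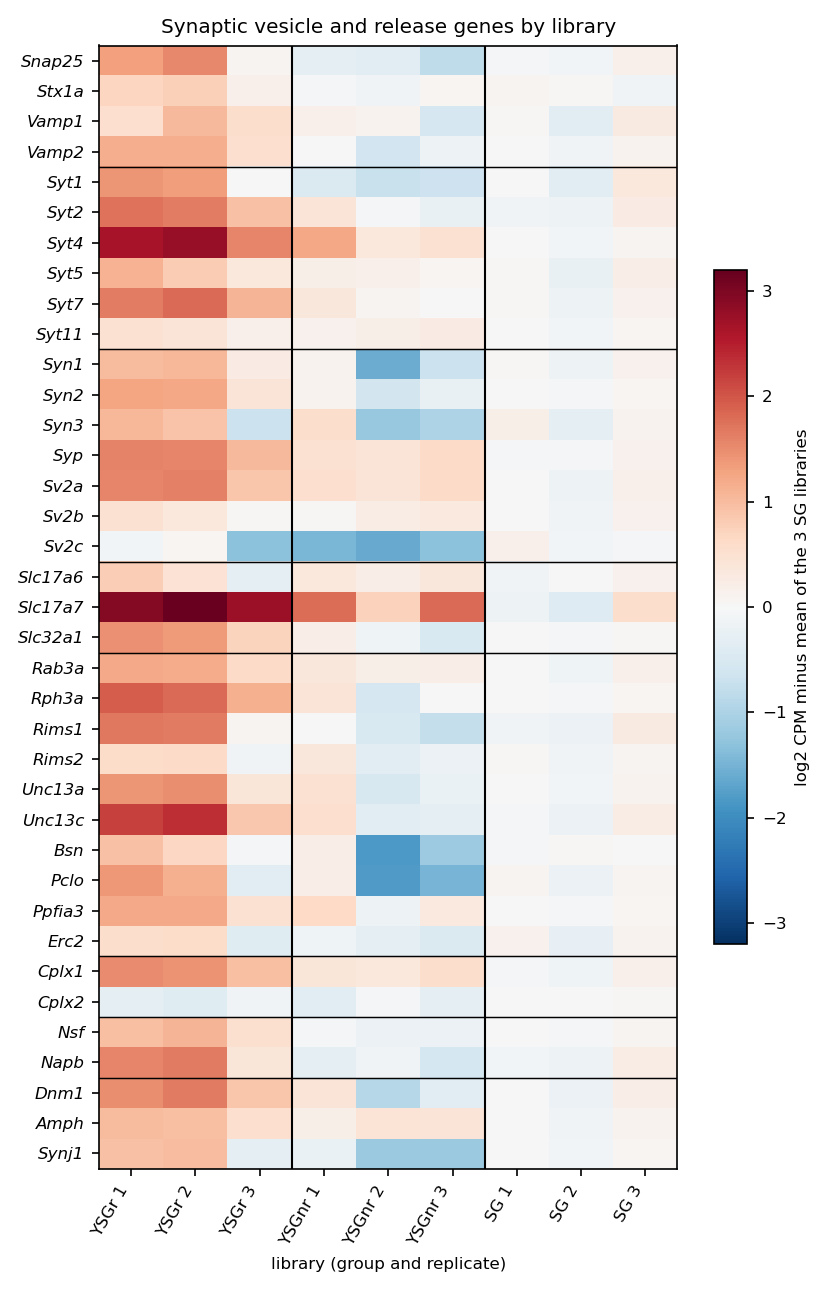
Heat map of the 37 members (rows, in blocks by role) in the 9 libraries (columns), coloured by log2 CPM minus the mean of the 3 SG libraries. The median member stood 1.22, 1.19 and 0.38 log2 units above the SG mean in YSGr replicates 1, 2 and 3, and at 0.21, -0.16 and -0.21 in YSGnr replicates 1, 2 and 3.

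How many members were called depended on single libraries. For YSGr against SG the count of members that rose was 8, 7 and 29 without YSGr replicate 1, 2 and 3, 19, 17 and 15 without YSGnr replicate 1, 2 and 3, and 7, 7 and 9 without SG replicate 1, 2 and 3. Over these fits the share of all tested genes called higher ran between 1.60% (without SG replicate 1) and 14.4% (without YSGr replicate 3). The same 7 genes, Syt4, Syt7, Syp, Sv2a, Slc17a7, Rph3a and Cplx1, were called in all 9 of these fits. The other 11 calls each held in 2 to 6 of the fits, and every one of them was lost in the fit without YSGr replicate 2, in that without SG replicate 1 and in that without SG replicate 2, with the highest adjusted p between 0.0567 (Syt2) and 0.155 (Napb). On GRCm38 the 7 genes called throughout include Slc17a7 at chr7:45163949-45176142, Syp at chrX:7638471-7653256, Sv2a at chr3:96181151-96195521, Cplx1 at chr5:108518554-108550024, Rph3a at chr5:120940499-121010092 and Syt7 at chr19:10389090-10453180. For YSGr against YSGnr the count was 33 without YSGr replicate 3 and 27 without YSGnr replicate 1, where 22.2% and 16.8% of tested genes were called higher. It was 0 without any other library, where 0.00656% to 0.0525% of tested genes were called higher. It was also 0 when the 6 libraries of the comparison were fitted alone, where 0 of all 15251 tested genes were called. The loss of calls in these fits thus ran over all genes. YSGr replicate 3 was the lowest YSGr library in 35 of 37 members. Omitting both YSGr replicate 3 and YSGnr replicate 1 raised the calls over all genes as well. In YSGr against SG 35 members then rose and 1, Cplx2, fell, where 23.5% of tested genes were called higher and 26.1% lower. In YSGr against YSGnr 33 then rose, where 32.0% were called higher. In YSGnr against SG 7 members were then called higher, below the share of 26.6% over all tested genes, and 16 lower, against 26.3%. Without YSGr replicate 3 alone 4 members were higher and 3 lower there, where 6.94% and 10.3% of tested genes were called. Without YSGnr replicate 1 alone 1 was higher and 5 lower, where 10.6% and 11.3% were called.

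**Figure D2:**
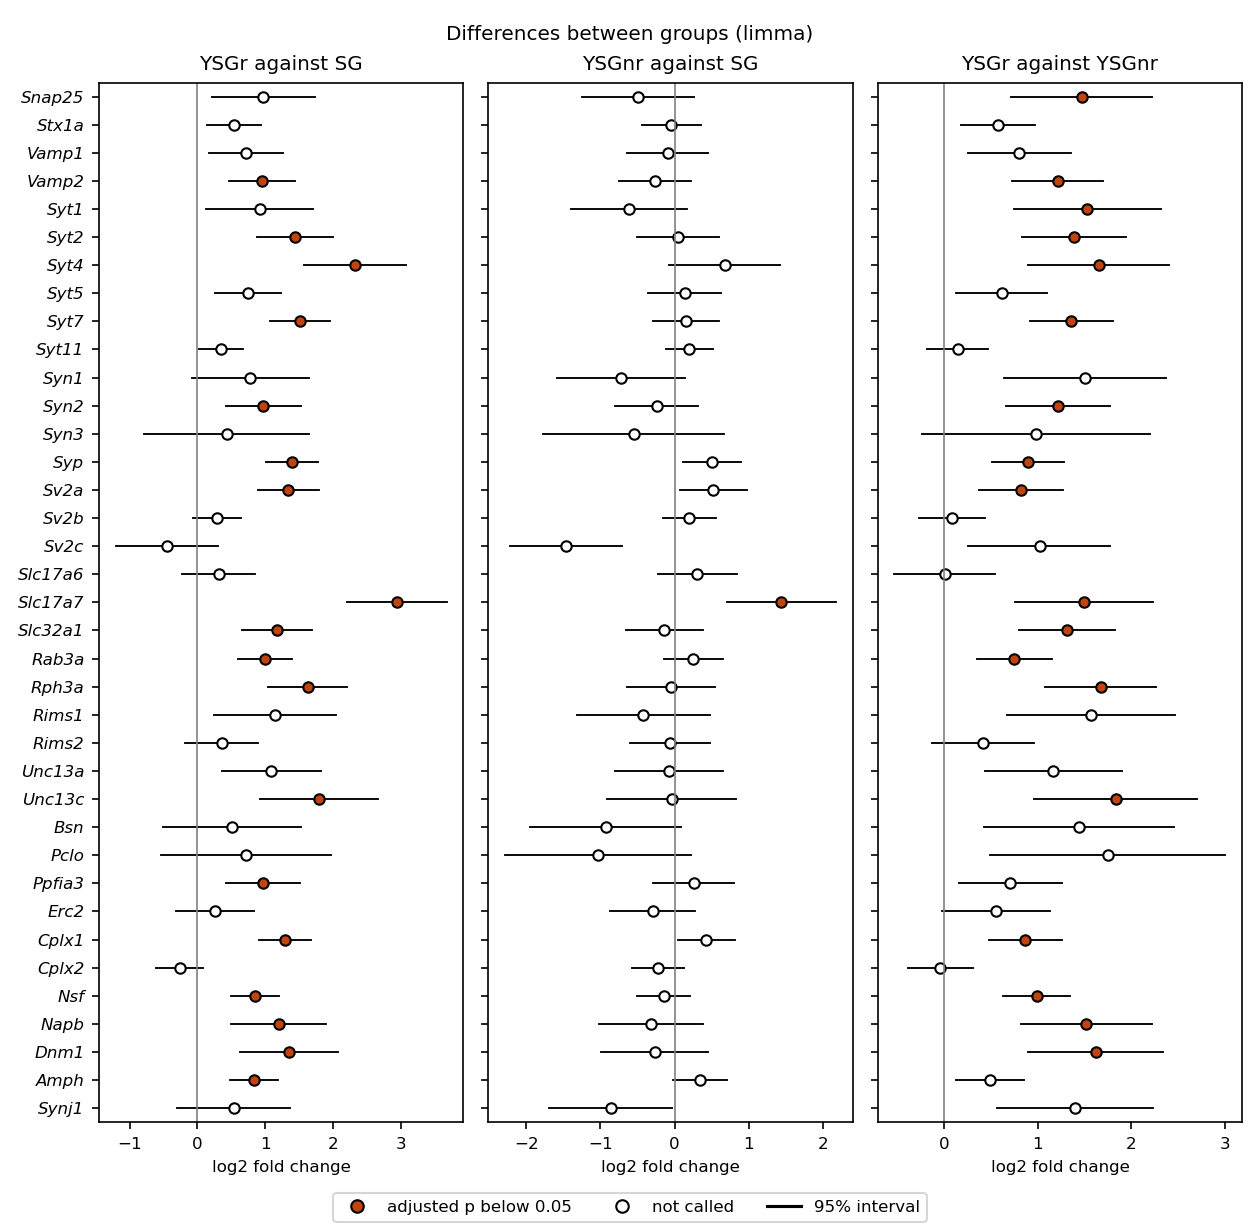
Log2 fold change of each member (circle) with its 95% interval (line) in YSGr against SG, YSGnr against SG and YSGr against YSGnr, with filled circles at an adjusted p below 0.05 (limma, all 9 libraries). In both comparisons of YSGr 18 circles are filled, all to the right of 0, and in YSGnr against SG the filled circle is Slc17a7.

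The genes of mature neurons other than the members moved with them. Of 20 mature granule neuron genes, 11 rose in YSGr against SG and 0 fell (17 and 0 at an unadjusted p below 0.05), and their summed level was 2721 to 5133 CPM in YSGr, 1895 to 2643 CPM in YSGnr and 1889 to 2183 CPM in SG. In YSGnr against SG 4 of the 20 rose and 0 fell, where 1.19% of tested genes were called higher. The list shares Car8 with the Purkinje cell list, Pax6 with the progenitor list and Calb2 with the unipolar brush cell list. Cntn2, which was not called, had the highest level of the list in every library and so the most weight in its sum. The defining GABA-A receptor subunits of the list were Gabra6, at 5.86, 6.23 and 5.36 log2 CPM in YSGr, 4.61, 3.92 and 4.16 in YSGnr, and 2.53, 2.77 and 2.96 in SG, and Gabrd, which rose by 3.42 log2 units (SE 0.26, adjusted p = 0.000582) in YSGr. Of 12 Purkinje cell genes 5 rose in YSGr against SG and 2 in YSGnr against SG, with sums of 1713 to 2867 CPM in YSGr, 726 to 1275 CPM in YSGnr and 1068 to 1166 CPM in SG. Of 15 granule neuron progenitor genes 5 fell in YSGr, with sums of 3476 to 5130 CPM in YSGr, 5431 to 5811 CPM in YSGnr and 5749 to 5993 CPM in SG. The progenitor median stood at -0.87, -1.34 and -0.05 log2 units from the SG mean in YSGr replicates 1, 2 and 3, so replicate 3, where the members were least raised, was also the library where progenitor genes were least lowered. Of 12 oligodendrocyte and myelin genes 9 rose and 1 fell in YSGr against SG, and 2 rose and 0 fell in YSGnr against SG. Their sums were 2679 to 4165 CPM in YSGr, 1085 to 2208 CPM in YSGnr and 871 to 1473 CPM in SG. The share that these cell types had in the members' differences was not tested. In bulk tissue, fewer cells of a type and less RNA per cell cannot be told apart.

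The remaining lists were counted in the same way. Of 12 cerebellar interneuron and Golgi cell genes, 3 of which (Gad1, Gad2 and Pvalb) are also in the Purkinje cell list, 1 rose in YSGr (Pvalb, a shared gene), with sums of 506 to 796 CPM in YSGr, 343 to 416 CPM in YSGnr and 467 to 505 CPM in SG. The defining gene Gad1, an enzyme of GABA synthesis, was measured at 7.33, 7.51 and 6.19 log2 CPM in YSGr, 5.87, 5.56 and 5.09 in YSGnr, and 6.19, 6.13 and 6.12 in SG. Of 7 unipolar brush cell genes 2 rose and 1 fell in YSGr, with sums of 233 to 410 CPM in YSGr, 195 to 197 CPM in YSGnr and 223 to 247 CPM in SG. In YSGr against SG, of 12 astrocyte and Bergmann glia genes 2 rose and 0 fell. Of 10 microglia and 10 endothelial genes 0 were called in either direction in that comparison (limma), with 1 and 0 at an unadjusted p below 0.05. In YSGr against YSGnr, 12 of 20 mature granule neuron, 9 of 12 Purkinje cell and 5 of 12 interneuron and Golgi cell genes rose, where 5.09% of tested genes were called higher. There 3 of 10 endothelial, 2 of 12 astrocyte and Bergmann glia and 2 of 7 unipolar brush cell genes also rose. In YSGnr against SG 3 of 10 endothelial genes fell and 0 rose, where 2.17% of tested genes were called lower. Of the 12 astrocyte and Bergmann glia genes 1 rose and 1 fell there. None of the defining markers, which are the 2 genes at the head of each list, was at the floor of the table in any library.

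The SNARE proteins form the bundle that pulls vesicle and plasma membrane together. Vamp2, the vesicle SNARE of most central synapses, was at 8.53, 8.52 and 7.90 log2 CPM in YSGr, 7.36, 6.75 and 7.20 in YSGnr, and 7.37, 7.26 and 7.47 in SG. All 3 YSGr libraries lay above all the others, and YSGnr and SG overlapped. Vamp2 rose by 0.95 log2 units (SE 0.22, adjusted p = 0.0255) in YSGr against SG and by 1.21 log2 units (SE 0.22, adjusted p = 0.028) in YSGr against YSGnr. Snap25, the plasma membrane SNARE that contributes a pair of helices, was at 7.97, 8.19 and 6.74 log2 CPM in YSGr, 6.34, 6.30 and 5.85 in YSGnr, and 6.58, 6.56 and 6.82 in SG. YSGr replicate 3 fell inside the SG range while the other two YSGr libraries lay far above it, and Snap25 was not called in YSGr against SG at 0.98 log2 units (SE 0.34, adjusted p = 0.0979). It rose by 1.47 log2 units (SE 0.34, adjusted p = 0.0423) in YSGr against YSGnr. Stx1a (syntaxin 1A, the partner of Snap25 in the plasma membrane) and Vamp1 (the vesicle SNARE of fast-firing neurons) differed by 0.54 log2 units (SE 0.18, adjusted p = 0.0828) and 0.72 log2 units (SE 0.24, adjusted p = 0.0946) in YSGr against SG, neither of them called. For the YSGnr libraries against SG the 4 genes lay between -0.50 and -0.04 log2 units, with none called and none at an unadjusted p below 0.05.

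Among the 6 synaptotagmins, 3 rose in YSGr against SG. Syt4 lacks a calcium-binding residue in its first C2 domain and is carried on dense-core and other vesicles, and it was at 7.51, 7.65 and 6.41 log2 CPM in YSGr, 6.09, 5.18 and 5.33 in YSGnr, and 4.88, 4.76 and 4.94 in SG. The groups formed 3 steps with no overlap, YSGr on top and SG lowest, and YSGnr replicate 1 was the YSGnr library closest to YSGr. Syt4 rose 5.03-fold in YSGr against SG, by 2.33 log2 units (SE 0.33, adjusted p = 0.00534), and by 1.65 log2 units (SE 0.33, adjusted p = 0.0354) in YSGr against YSGnr. Its YSGnr to SG difference of 0.68 log2 units (SE 0.33, adjusted p = 0.229) was not called. 

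Syt7, the slow, high-affinity calcium sensor of asynchronous release, was at 6.94, 7.09 and 6.38 log2 CPM in YSGr, 5.65, 5.39 and 5.30 in YSGnr, and 5.32, 5.13 and 5.42 in SG. YSGr lay above both other groups in every library and YSGnr overlapped with SG. It rose by 1.51 log2 units (SE 0.20, adjusted p = 0.00358) in YSGr against SG and by 1.36 log2 units (SE 0.20, adjusted p = 0.0244) in YSGr against YSGnr. Syt2, a fast sensor of brainstem and cerebellar inhibitory terminals, was at 6.73, 6.62 and 5.93 log2 CPM in YSGr, 5.40, 4.95 and 4.76 in YSGnr, and 4.87, 4.83 and 5.26 in SG and rose by 1.44 log2 units (SE 0.25, adjusted p = 0.0101) in YSGr against SG. Its relative Syt1, the fast sensor of most forebrain synapses, was at 7.99, 7.91 and 6.57 log2 CPM in YSGr, 6.11, 5.85 and 5.91 in YSGnr, and 6.57, 6.23 and 6.92 in SG. YSGr replicate 3 lay within the SG range and all YSGnr libraries lay below SG, so that Syt1 was called only in YSGr against YSGnr, at 1.53 log2 units (SE 0.35, adjusted p = 0.0423), and not in YSGr against SG, at 0.92 log2 units (SE 0.35, adjusted p = 0.131). Syt5 differed by 0.75 log2 units (SE 0.22, adjusted p = 0.0566) and Syt11, which binds no calcium, by 0.35 log2 units (SE 0.14, adjusted p = 0.16) in YSGr against SG. For Syt11 the YSGr to YSGnr difference was 0.15 (95% interval -0.18 to 0.47).

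The proteins that stud or coat the vesicle split in the same way. Syp (synaptophysin, the most abundant membrane protein of the vesicle) was at 8.86, 8.82 and 8.30 log2 CPM in YSGr, 7.74, 7.68 and 7.86 in YSGnr, and 7.19, 7.19 and 7.39 in SG, 3 steps that did not overlap. Sv2a, the vesicle glycoprotein that binds the drug levetiracetam, was at 8.12, 8.17 and 7.45 log2 CPM in YSGr, 7.12, 6.99 and 7.19 in YSGnr, and 6.55, 6.42 and 6.74 in SG, again in 3 steps. Syp rose 2.64-fold in YSGr against SG, by 1.40 log2 units (SE 0.17, adjusted p = 0.00312), and Sv2a rose 2.54-fold, by 1.35 log2 units (SE 0.20, adjusted p = 0.00599). Against YSGnr they rose by 0.90 log2 units (SE 0.17, adjusted p = 0.0334) and 0.82 log2 units (SE 0.20, adjusted p = 0.0475). Neither was called in YSGnr against SG, at 0.50 log2 units (SE 0.17, adjusted p = 0.118) and 0.53 log2 units (SE 0.20, adjusted p = 0.147).

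The related Sv2b was at 7.60, 7.45 and 7.14 log2 CPM in YSGr, 7.15, 7.36 and 7.43 in YSGnr, and 7.10, 6.99 and 7.24 in SG, with all 9 libraries within a narrow band. Its YSGr to SG difference was 0.29 (95% interval -0.07 to 0.64), an interval that ends below the fold change of Sv2a. Without YSGr replicate 3 it was called at 0.42 (adjusted p = 0.0497). Sv2c, the form of basal ganglia and a few other cell groups and the least abundant member, was at 2.70, 2.86 and 1.48 log2 CPM in YSGr, 1.32, 1.18 and 1.48 in YSGnr, and 2.95, 2.71 and 2.72 in SG. All YSGnr libraries and YSGr replicate 3 lay more than 1 log2 unit below SG, while YSGr replicates 1 and 2 lay beside SG. Its YSGnr to SG difference of -1.47 log2 units (SE 0.34) just missed the threshold and its call depended on the processing, while in YSGr against SG it was -0.45 log2 units (SE 0.34, adjusted p = 0.456).

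The synapsins tether vesicles to each other and to actin. Syn2 was at 7.56, 7.54 and 6.72 log2 CPM in YSGr, 6.40, 5.70 and 6.06 in YSGnr, and 6.29, 6.24 and 6.36 in SG and rose by 0.98 log2 units (SE 0.25, adjusted p = 0.0374) in YSGr against SG. Syn1 was at 7.34, 7.38 and 6.59 log2 CPM in YSGr, 6.43, 4.72 and 5.64 in YSGnr, and 6.35, 6.15 and 6.45 in SG, with YSGnr replicate 2 far below every other library, and was not called in YSGr against SG (0.78, adjusted p = 0.234) or in YSGr against YSGnr (1.51, adjusted p = 0.0516). Syn3, a synapsin expressed early in neuronal development, was at 5.03, 4.86 and 3.28 log2 CPM in YSGr, 4.52, 2.74 and 2.96 in YSGnr, and 4.15, 3.65 and 4.08 in SG. It spread widely within YSGr and within YSGnr, and no comparison called it. Syn1 and Syp lie on the X chromosome, and the sex-linked split of the libraries stands beside their values.

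The vesicular transporters decide which transmitter a vesicle holds, and they held the member with the largest difference. Slc17a7 (vesicular glutamate transporter 1, of mature granule neuron terminals) was at 7.39, 7.61 and 7.20 log2 CPM in YSGr, 6.25, 5.19 and 6.26 in YSGnr, and 4.29, 4.05 and 5.03 in SG. The groups formed 3 steps without overlap, YSGr highest, and YSGr replicate 3 lay close to the other two YSGr libraries. It rose 7.69-fold in YSGr against SG, by 2.94 log2 units (SE 0.33, adjusted p = 0.00204), 2.72-fold in YSGnr against SG, by 1.45 log2 units (SE 0.33, adjusted p = 0.0482), and 2.82-fold in YSGr against YSGnr, by 1.498 log2 units (SE 0.33, adjusted p = 0.0399). The call in YSGnr against SG was kept in 3 of the 9 fits with a library left out, and was lost without YSGr replicate 1 or 2, YSGnr replicate 3 or any SG library, with adjusted p up to 0.193.

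Slc17a6 (vesicular glutamate transporter 2, of climbing fibres, some mossy fibres and immature granule neurons) was at 6.49, 6.16 and 5.42 log2 CPM in YSGr, 6.04, 5.92 and 6.08 in YSGnr, and 5.58, 5.69 and 5.85 in SG. YSGr replicate 3 was the lowest and replicate 1 the highest of all 9 libraries, and the YSGr to SG difference was 0.32 (95% interval -0.22 to 0.86, adjusted p = 0.455). Without YSGr replicate 3 it was 0.62 and was called (adjusted p = 0.0117). Slc32a1 (the vesicular transporter of GABA and glycine) was at 6.46, 6.36 and 5.71 log2 CPM in YSGr, 5.21, 4.87 and 4.50 in YSGnr, and 4.997, 4.96 and 5.04 in SG, with YSGr above all others and YSGnr spread on both sides of SG. It rose by 1.18 log2 units (SE 0.23, adjusted p = 0.0166) in YSGr against SG and by 1.31 log2 units (SE 0.23, adjusted p = 0.0278) in YSGr against YSGnr. A glutamate transporter gene and the GABA transporter gene thus both rose in YSGr.

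The promoters of 5 of these genes are shown because Syp, Sv2a and Slc17a7 were called in YSGr against SG in every fit with a library left out. Sv2b and Slc17a6, relatives of Sv2a and Slc17a7, were not called with all 9 libraries and were called in 1 of those 9 fits. Each sequence runs 5′ to 3′ over 300 bases, 250 before and 50 after the start of the RefSeq transcript on GRCm38.p6, and capitals mark the GC box GGGCGG on either strand. They lie at chrX:7638330-7638629, plus strand (Syp), chr3:96180977-96181276, plus strand (Sv2a), chr7:75309213-75309512, minus strand (Sv2b), chr7:45163671-45163970, plus strand (Slc17a7) and chr7:51621580-51621879, plus strand (Slc17a6).
Syp: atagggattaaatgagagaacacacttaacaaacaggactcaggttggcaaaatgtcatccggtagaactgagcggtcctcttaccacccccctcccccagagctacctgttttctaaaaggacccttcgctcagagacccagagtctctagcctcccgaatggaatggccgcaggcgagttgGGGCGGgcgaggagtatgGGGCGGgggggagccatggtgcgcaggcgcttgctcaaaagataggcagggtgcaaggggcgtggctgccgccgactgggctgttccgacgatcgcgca
Sv2a: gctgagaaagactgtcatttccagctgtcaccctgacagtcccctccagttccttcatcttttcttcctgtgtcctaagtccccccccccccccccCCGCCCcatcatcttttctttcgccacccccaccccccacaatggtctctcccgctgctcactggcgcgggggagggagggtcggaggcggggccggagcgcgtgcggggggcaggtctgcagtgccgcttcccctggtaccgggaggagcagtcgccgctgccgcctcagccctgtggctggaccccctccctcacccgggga
Sv2b: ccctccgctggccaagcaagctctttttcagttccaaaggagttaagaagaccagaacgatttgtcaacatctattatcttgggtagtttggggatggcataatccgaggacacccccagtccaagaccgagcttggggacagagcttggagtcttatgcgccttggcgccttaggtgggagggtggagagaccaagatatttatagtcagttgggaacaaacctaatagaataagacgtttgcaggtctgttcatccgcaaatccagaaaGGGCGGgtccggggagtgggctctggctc
Slc17a7: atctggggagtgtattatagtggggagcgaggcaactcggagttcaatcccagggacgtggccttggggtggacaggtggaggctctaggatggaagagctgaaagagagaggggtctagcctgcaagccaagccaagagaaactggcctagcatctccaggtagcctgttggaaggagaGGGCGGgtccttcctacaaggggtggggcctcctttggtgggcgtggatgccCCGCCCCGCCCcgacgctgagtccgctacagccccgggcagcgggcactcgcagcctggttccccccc
Slc17a6: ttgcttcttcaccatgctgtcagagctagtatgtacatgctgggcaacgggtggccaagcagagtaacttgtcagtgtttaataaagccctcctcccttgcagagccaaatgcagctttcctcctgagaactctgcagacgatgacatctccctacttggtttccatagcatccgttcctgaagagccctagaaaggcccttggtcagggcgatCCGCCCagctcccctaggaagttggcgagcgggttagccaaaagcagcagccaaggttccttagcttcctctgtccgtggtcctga

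All 5 windows shown held a GC box, so its presence in them did not separate the genes that rose from their relatives. Sv2b and Slc17a6 also have windows at other RefSeq starts, and those held no GC box. Syp held 2 and Slc17a7 held 3, with 2 of those in Slc17a7 sharing a base. A promoter window was found for 30 of the 37 members, taking the window that the RefSeq table gives at its head for each gene, and 21 of the 30 (70.0%) held a GC box, against 35.9% of 27025 promoters of the same length. The members' windows were also richer in G and C, with a median of 62.8% against 52.7%, and in CG pairs, with a median of 19 against 7 per window. Of the 15 members that rose in YSGr against SG and had a window, 10 held a GC box. Each of the other motifs searched on both strands was found in 1 to 8 of the 30 windows. CATTCC, the core bound by TEAD factors, the DNA-binding partners of Yap1, was in 4 of 30 members (13.3%, against 14.6%). CAGCACC and GGACAG, the left and right parts of the RE1 element of neuronal genes, were in 4 (13.3%, against 7.09%) and 8 (26.7%, against 22.1%). The cyclic AMP element TGACGTCA was in 1 (Syn1; 3.33%, against 1.88%), the E-box CAGATG in 2 (6.67%, against 17.2%) and TATAAA in 1 (3.33%, against 14.2%).

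**Figure D3:**
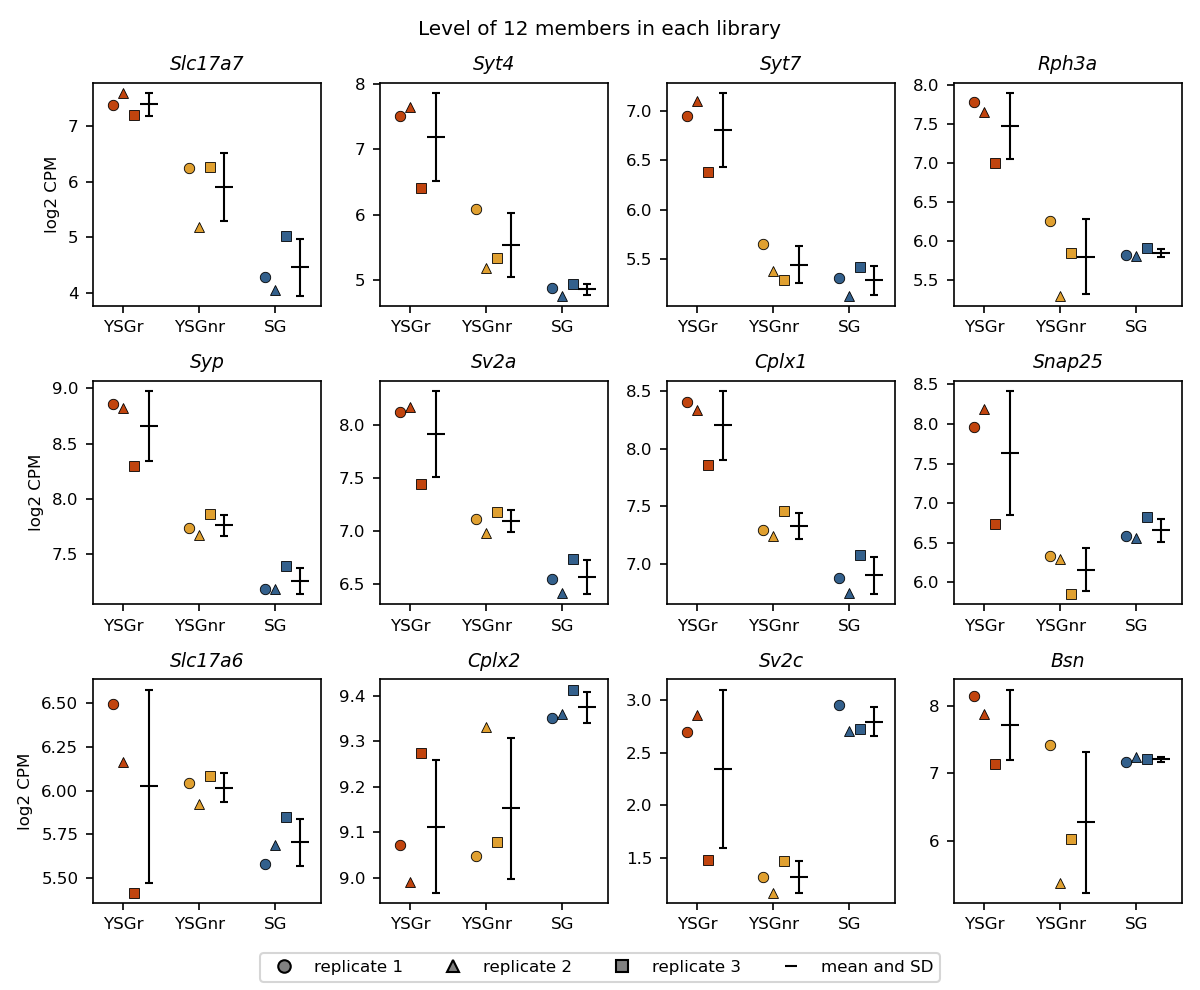
Level of 12 members in log2 CPM (y axis, scaled separately in each panel) in YSGr, YSGnr and SG, with a symbol per replicate and the mean and SD beside them. Slc17a7, Syt4, Syp, Sv2a and Cplx1 fall in 3 separate steps, while Cplx2 stays between 8.99 and 9.41 log2 CPM and Bsn ranges widely within YSGnr.

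Of the 10 genes of docking, priming and the active zone, 4 rose in YSGr against SG. Rab3a, the small GTPase that marks vesicles for docking, was at 7.74, 7.72 and 7.15 log2 CPM in YSGr, 6.90, 6.72 and 6.74 in YSGnr, and 6.52, 6.39 and 6.69 in SG. Its effector Rph3a (rabphilin 3A) was at 7.78, 7.65 and 6.995 log2 CPM in YSGr, 6.25, 5.30 and 5.85 in YSGnr, and 5.83, 5.81 and 5.91 in SG. For both genes every YSGr library exceeded all the others, and for Rph3a YSGnr spread on both sides of SG. Rab3a rose by 1.00 log2 units (SE 0.18, adjusted p = 0.0112) and Rph3a 3.09-fold, by 1.63 log2 units (SE 0.26, adjusted p = 0.00799), in YSGr against SG, and Rph3a rose by 1.67 log2 units (SE 0.26, adjusted p = 0.0267) in YSGr against YSGnr.

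Munc13 proteins prime docked vesicles by opening syntaxin. Unc13c (Munc13-3, a form found mainly in the cerebellum) was at 6.20, 6.38 and 4.88 log2 CPM in YSGr, 4.56, 3.69 and 3.71 in YSGnr, and 3.97, 3.83 and 4.27 in SG, with YSGr above all other libraries but replicate 3 much closer to them. It rose 3.48-fold in YSGr against SG, by 1.80 log2 units (SE 0.39, adjusted p = 0.0221), and by 1.83 log2 units (SE 0.39, adjusted p = 0.0386) in YSGr against YSGnr. Unc13a (Munc13-1, the form of most glutamate synapses) was at 8.04, 8.12 and 7.01 log2 CPM in YSGr, 7.12, 6.13 and 6.42 in YSGnr, and 6.61, 6.55 and 6.74 in SG and was not called, at 1.09 log2 units (SE 0.32, adjusted p = 0.0619) in YSGr against SG, and YSGnr replicate 1 exceeded YSGr replicate 3. Ppfia3 (liprin alpha 3, an active zone organiser) was at 6.64, 6.62 and 5.90 log2 CPM in YSGr, 6.05, 5.25 and 5.73 in YSGnr, and 5.40, 5.39 and 5.47 in SG and rose by 0.97 log2 units (SE 0.24, adjusted p = 0.0364) in YSGr against SG.

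The large scaffolds spread widely between libraries. Bsn (bassoon) was at 8.14, 7.88 and 7.13 log2 CPM in YSGr, 7.41, 5.38 and 6.03 in YSGnr, and 7.17, 7.23 and 7.21 in SG and Pclo (piccolo) at 7.81, 7.57 and 6.08 log2 CPM in YSGr, 6.65, 4.61 and 4.94 in YSGnr, and 6.53, 6.25 and 6.53 in SG. The 3 SG libraries were close together, YSGnr replicate 1 lay slightly above them, and YSGnr replicates 2 and 3 lay more than 1 log2 unit below. Neither gene was called: Bsn differed by 0.51 log2 units (SE 0.45, adjusted p = 0.534) and Pclo by 0.72 log2 units (SE 0.56, adjusted p = 0.471) in YSGr against SG, and by -0.93 log2 units (SE 0.45, adjusted p = 0.224) and -1.03 log2 units (SE 0.56, adjusted p = 0.264) in YSGnr against SG. Rims1, the RIM scaffold that links Rab3 vesicles to calcium channels, was at 6.63, 6.62 and 5.04 log2 CPM in YSGr, 4.93, 4.46 and 4.19 in YSGnr, and 4.84, 4.77 and 5.24 in SG, and its difference of 1.15 log2 units (SE 0.40, adjusted p = 0.103) in YSGr against SG was not called. Rims2 differed by 0.36 log2 units (SE 0.24, adjusted p = 0.398) and Erc2 (a CAST family protein that binds RIM and bassoon) by 0.26 log2 units (SE 0.26, adjusted p = 0.586).

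Complexins clamp and then assist the SNARE bundle. Cplx1 was at 8.41, 8.33 and 7.86 log2 CPM in YSGr, 7.30, 7.24 and 7.46 in YSGnr, and 6.88, 6.75 and 7.08 in SG, in 3 steps without overlap. It rose 2.46-fold in YSGr against SG, by 1.30 log2 units (SE 0.17, adjusted p = 0.00387), and by 0.87 log2 units (SE 0.17, adjusted p = 0.0352) in YSGr against YSGnr. Cplx2 was at 9.07, 8.99 and 9.27 log2 CPM in YSGr, 9.05, 9.33 and 9.08 in YSGnr, and 9.35, 9.36 and 9.41 in SG. All YSGr and all YSGnr libraries lay below all SG libraries, but by little: the difference was -0.26 (95% interval -0.61 to 0.09, adjusted p = 0.327) in YSGr against SG and -0.22 (adjusted p = 0.377) in YSGnr against SG. Per kilobase of transcript, Cplx2 had the highest mean level of the 37 members in SG (7.07 log2 CPM per kb) and in YSGnr (6.85), and Vamp2 had it in YSGr (7.18), with Syp (7.15) and Cplx1 (7.07) next and within the spread of the YSGr libraries.

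Both genes of SNARE disassembly rose. Nsf, the ATPase that unwinds the spent complex, was at 7.23, 7.34 and 6.77 log2 CPM in YSGr, 6.20, 6.08 and 6.09 in YSGnr, and 6.25, 6.19 and 6.36 in SG, and Napb (beta-SNAP, its brain adaptor) at 6.97, 7.05 and 5.77 log2 CPM in YSGr, 5.09, 5.29 and 4.84 in YSGnr, and 5.31, 5.24 and 5.63 in SG. Every YSGr library lay above the others in both genes, and in Napb YSGr replicate 3 lay just above the highest SG library. Nsf rose by 0.85 log2 units (SE 0.16, adjusted p = 0.0147) and Napb by 1.20 log2 units (SE 0.31, adjusted p = 0.0406) in YSGr against SG, and against YSGnr they rose by 0.99 log2 units (SE 0.16, adjusted p = 0.0267) and 1.52 log2 units (SE 0.31, adjusted p = 0.0368).

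In endocytosis, Dnm1 (dynamin 1, which pinches off the retrieved membrane) was at 7.79, 7.95 and 7.19 log2 CPM in YSGr, 6.71, 5.39 and 5.96 in YSGnr, and 6.27, 6.10 and 6.51 in SG and rose by 1.35 log2 units (SE 0.32, adjusted p = 0.0299) in YSGr against SG and by 1.62 log2 units (SE 0.32, adjusted p = 0.0349) in YSGr against YSGnr. Amph (amphiphysin, which brings dynamin to the neck of the pit) was at 7.69, 7.64 and 7.21 log2 CPM in YSGr, 6.86, 7.11 and 7.09 in YSGnr, and 6.67, 6.56 and 6.80 in SG, in 3 steps without overlap, and rose by 0.84 log2 units (SE 0.16, adjusted p = 0.0158) in YSGr against SG. Synj1 (synaptojanin 1, the lipid phosphatase that removes the coat) was at 7.11, 7.18 and 5.87 log2 CPM in YSGr, 5.98, 4.98 and 4.996 in YSGnr, and 6.20, 6.09 and 6.26 in SG. YSGr replicates 1 and 2 lay above SG, YSGr replicate 3 below it, and all YSGnr libraries below it, and Synj1 was not called, at 0.54 log2 units (SE 0.37, adjusted p = 0.411) in YSGr against SG and -0.86 log2 units (SE 0.37, adjusted p = 0.183) in YSGnr against SG.

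Comparing paralogs within a library removes the scaling of that library. Per kilobase, Slc17a7 exceeded Slc17a6 by 1.33, 1.87 and 2.21 log2 units in YSGr and by 0.63, -0.30 and 0.61 in YSGnr, against -0.86, -1.21 and -0.39 in SG. The glutamate transporter in excess was thus Slc17a7 in every YSGr library and Slc17a6 in every SG library. Cplx1 minus Cplx2 was 0.50, 0.51 and -0.24 in YSGr and -0.58, -0.92 and -0.45 in YSGnr, against -1.30, -1.44 and -1.17 in SG, and Sv2b minus Sv2a was -0.87, -1.07 and -0.66 in YSGr and -0.32, 0.02 and -0.11 in YSGnr, against 0.20, 0.22 and 0.15 in SG. In these 3 pairs the 3 groups did not overlap, with YSGnr between YSGr and SG. A within-library difference keeps the slope on transcript length given below. In each of these pairs the paralog that gained is the shorter: Slc17a7 (3.08 against 4.14 kb), Cplx1 (2.19 against 4.93 kb) and Sv2a (4.33 against 5.52 kb). The pairs themselves were not recomputed with that slope removed. For the single genes, with a trend on length and GC content removed, the YSGr to SG difference was 2.76 log2 units for Slc17a7 and 0.423 for Slc17a6. It was 1.14 for Cplx1 and -0.379 for Cplx2, and 1.215 for Sv2a and 0.332 for Sv2b. The part that length had in the pairs was not tested. Rims2 minus Rims1 differed by -0.79 log2 units between YSGr and SG, and Unc13c minus Unc13a by 0.70, also without overlap. An exact two-sided permutation test of 3 against 3 libraries cannot give a p below 0.10. In YSGr against SG 7 of the 8 pairs reached that value, these 5 together with Syt2 minus Syt1 (0.52) and Syn2 minus Syn1 (0.19). Reaching it means only that the groups compared did not overlap. Of single tested genes, 19.5% did not overlap with YSGr higher and 17.3% with YSGr lower, and the share over other gene pairs was not computed. Rims2 minus Rims1 cleared narrowly, at 0.473 in YSGr replicate 3 against 0.489 in SG replicate 3. Vamp1 minus Vamp2 differed by -0.24 (exact permutation p = 0.4). Benjamini-Hochberg adjustment over the 24 comparisons of 8 pairs gave 0.15 for each of the 7. With a library left out, the difference between YSGr and SG lay between 2.42 and 2.86 log2 units for Slc17a7 minus Slc17a6, between 1.43 and 1.81 for Cplx1 minus Cplx2 and between -1.16 and -0.96 for Sv2b minus Sv2a.

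**Figure D4:**
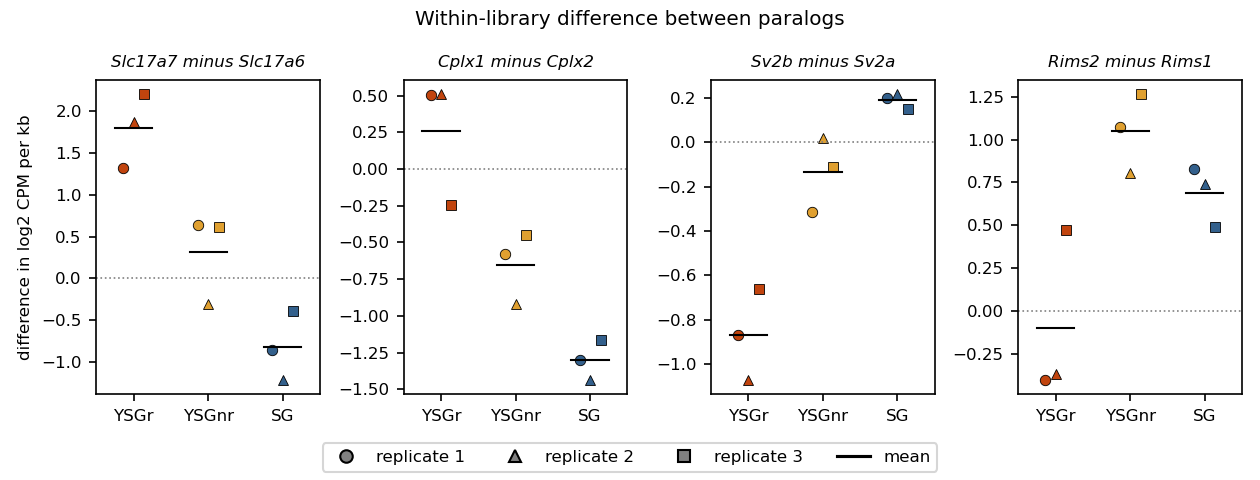
Difference in log2 CPM per kilobase of transcript between the paralogs named above each panel, in each library of YSGr, YSGnr and SG (symbols are replicates, the bar is the mean, the dotted line is equality). Slc17a7 minus Slc17a6 averages 1.80 in YSGr and 0.31 in YSGnr against -0.82 in SG.

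Transcript length moved with the spread among the members. Over the 37 members, the Spearman correlation of a gene's difference from the SG mean with its transcript length was -0.12, -0.09 and -0.41 in YSGr replicates 1, 2 and 3 and -0.11, -0.43 and -0.55 in YSGnr replicates 1, 2 and 3. Over the 14602 tested genes with a length it was 0.15, 0.13 and -0.41 in YSGr and -0.07, -0.52 and -0.50 in YSGnr, so the negative slope of YSGr replicate 3 and of YSGnr replicates 2 and 3 ran over all genes. These are correlations across genes of a library, which are not independent replicates. Bsn, of 15.9 kb, and Pclo, of 20.1 kb, the longest members, were the lowest against SG in YSGnr replicate 2. After a trend on length and GC content was removed from each library, Bsn differed by -0.41 and Pclo by -0.41 log2 units in YSGnr against SG, against -0.93 and -1.03 as deposited. Slc17a7 kept 2.76 in YSGr against SG and 1.32 in YSGnr against SG. Vamp2 and Rab3a were no longer called in YSGr against SG (adjusted p = 0.0677 and 0.0535), with differences of 0.86 and 0.92 log2 units, against 0.95 and 1.00 as deposited. Snap25, Vamp1, Rims1 and Unc13a were called after the removal, at 1.13, 0.76, 1.18 and 0.94 log2 units (adjusted p = 0.0114, 0.0423, 0.037 and 0.0118). The part that RNA quality had in this slope was not tested.

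**Figure D5:**
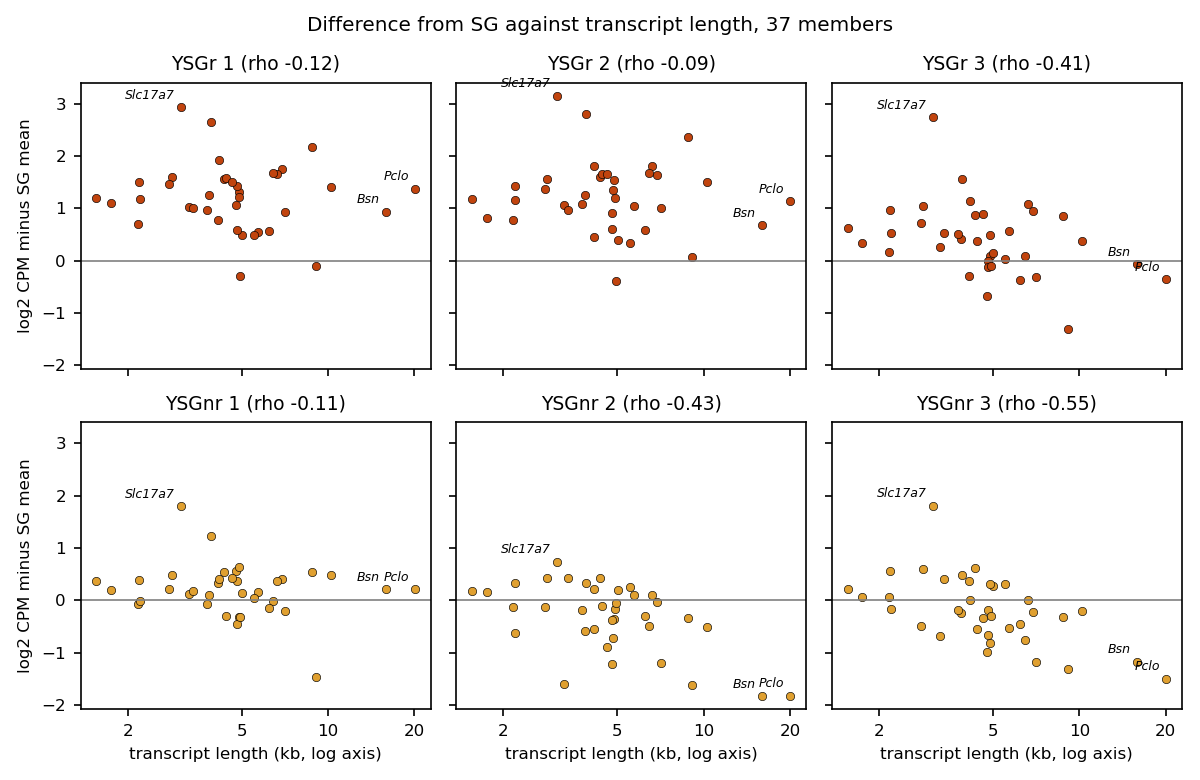
Difference of each member from the SG mean in log2 CPM (y axis) against transcript length in kb (log axis) in the 3 YSGr libraries (top) and the 3 YSGnr libraries (bottom), with the Spearman correlation over the 37 members in each title. In YSGnr replicates 2 and 3 the longest members, Bsn and Pclo, are the lowest or near it, and Slc17a7 is the highest point in all 6 panels.

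Other presynaptic genes showed a like pattern. Of 59 further genes of the vesicle cycle, 57 were tested. In YSGr against SG 23 rose and 1 fell, with a median of 0.63 log2 units, where 6.58% of tested genes were called higher and 3.97% lower. The largest rises were in Prrt2, a SNARE-binding protein that is mutated in paroxysmal dyskinesia in humans, at 4.69, 5.19 and 4.38 log2 CPM in YSGr, 3.29, 2.64 and 3.28 in YSGnr, and 2.40, 2.15 and 2.91 in SG, Doc2b, a calcium sensor of spontaneous release (1.85 log2 units (SE 0.32, adjusted p = 0.0101)), and Ppfia4, liprin alpha 4 (1.80 log2 units (SE 0.31, adjusted p = 0.0107)). Syt10, which controls secretion of growth factor vesicles in olfactory neurons, was the gene that fell, and it was at -2.40, -1.38 and -0.71 log2 CPM in YSGr, 0.45, 0.06 and 0.82 in YSGnr, and 0.89, -0.01 and 0.23 in SG. For YSGnr against SG, 3 rose and 0 fell (9 and 9 at an unadjusted p below 0.05, limma): Syt12 by 0.90 log2 units (SE 0.17, adjusted p = 0.0287), Rab3d by 0.88 log2 units (SE 0.15, adjusted p = 0.0207) and Bin1, an amphiphysin relative, by 0.67 log2 units (SE 0.14, adjusted p = 0.0365). In YSGr against YSGnr 16 rose and 0 fell (32 and 4 at an unadjusted p below 0.05), led by Lin7a, an adaptor of synaptic junctions, at 6.86, 6.82 and 5.002 log2 CPM in YSGr, 4.80, 4.41 and 4.11 in YSGnr, and 4.41, 4.59 and 4.77 in SG, Ppfia4 and Prrt2. Of all tested genes 1.19% were called higher and 2.17% lower in YSGnr against SG, and 5.09% and 0.879% in YSGr against YSGnr. At an unadjusted p below 0.05 (limma), 1692 of the 15251 tested genes were higher and 2217 lower in YSGnr against SG. In YSGr against YSGnr these numbers were 2942 and 2228. The counts over the list moved with single libraries as those of the members did, between 8 and 37 in YSGr against SG, between 0 and 16 in YSGnr against SG and between 0 and 44 in YSGr against YSGnr. The share of all tested genes called higher moved in the same fits, between 1.60% and 14.4%, between 0.0262% and 10.6% and between 0.00656% and 22.2% in the same order.

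Some members share exon bases with genes on the other strand, and the sources used here do not say whether the libraries kept strand. Gm14205 overlaps 24.9% of the exon bases of Slc32a1, Gm14703 16.8% of Syp, Gm26658 14.5% of Syt4 and Timp3 14.1% of Syn3. Without strand, reads of such a pair cannot be told apart. Gm26658 was at 2.54, 1.98 and 1.17 log2 CPM in YSGr, 0.77, 0.07 and 0.88 in YSGnr, and -0.26, -0.07 and -0.51 in SG, far below Syt4 in every library, and Gm14703 was at most 1.20 log2 CPM, against at least 7.19 for Syp. Timp3, an inhibitor of metalloproteinases, exceeded Syn3 in every library, at 7.09, 6.82 and 5.70 log2 CPM in YSGr, 5.93, 6.04 and 6.004 in YSGnr, and 6.64, 6.54 and 6.599 in SG, so the values of Syn3 are uncertain.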

How the data were processed

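Total RNA of the 9 tumour samples went to BGI for DNBseq sequencing, per the labels' protocols. The authors deposited 1 table of log2 CPM values for 17482 genes. The submitters' processing notes list Trimmomatic, RSEM, Bowtie2, Picard and edgeR with build mm10 and no versions. The annotation version, the removal of ribosomal RNA and the strand setting were not given in the sources used here. All libraries share the floor -3.52, which implies a mean added count of 2.00 reads and understates differences of low genes. Reads recomputed from the values were whole in 60.5% to 69.2% of cases (tolerance 0.02 reads), so no count test was run.

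One limma model (version 3.58.1, R 4.3.3) was fitted to the log2 CPM of all 9 libraries, with a mean per group and a trended empirical Bayes variance, and gave two-sided moderated tests. P-values were adjusted by Benjamini-Hochberg over the 15251 genes with more than 0 log2 CPM in 3 or more libraries, and a gene was called at an adjusted p below 0.05. The steps were tested on simulated data. Since separate animals are not stated, the p-values describe the spread of these libraries, which may be technical. Transcript lengths and gene coordinates are those of GENCODE M21 (GRCm38), which held 95.6% of the symbols, and promoters are those of RefSeq on GRCm38.p6.

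The text names all 37 members, the targeted gene Yap1, the 3 strongest rises and 3 strongest falls of each comparison among called further presynaptic genes, and the 2 defining markers of a list. The members, the 10 lists and the alternatives were chosen with earlier results of these data known. The alternatives left out the filter, raised it to 1 log2 CPM, used a pseudocount of 1 CPM, median scaling, quantile normalization, only the 6 libraries compared, array weights or a replicate block, removed a length and GC trend with and without that block, and omitted each library in turn or YSGr replicate 3 together with YSGnr replicate 1.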

Additional observations from a re-analysis of the deposited data

How the results depend on the processing

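In YSGr against SG, where 18 of the 37 members rose, the count was 35 with array weights, 35 with YSGr replicate 3 and YSGnr replicate 1 left out, and 7 to 29 with each library left out in turn, and 1 member, Cplx2, was lower under each of the first 2 settings. In YSGnr against SG, where 1 member rose, 0 did so with no filter, median scaling, quantile normalization, the replicate block and the replicate block with the length and GC trend removed, 6 with array weights, 7 with both libraries left out and 0 to 4 with each library left out. Members lower there (0) numbered 1 with the stricter filter, the pseudocount, quantile normalization and the 6 libraries alone, 14 with array weights, 16 with both libraries left out and 0 to 5 with each left out. Of all tested genes 2.49% were called lower there with the stricter filter and 2.43% with the pseudocount. The share was 2.09% with quantile normalization, 5.13% with the 6 libraries alone and 0.0984% to 11.3% with each left out. The members' median there, -0.076 log2 units, was -0.272 without YSGnr replicate 1 and changed sign, to 0.046, without YSGnr replicate 2. In YSGr against YSGnr, where 18 rose, the count was 7 with median scaling, 0 with the 6 libraries alone, 35 with array weights, 33 with both libraries left out and 0 to 33 with each left out. Of all tested genes 1.72% were called higher there with median scaling, 0.00% with the 6 libraries alone and 0.00656% to 22.2% with each left out.

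Of the further presynaptic genes, 24 were called in YSGr against SG, and 47 with array weights, 42 with both libraries left out and 8 to 37 with each left out. In YSGnr against SG (3) the counts were 8 with the 6 libraries alone, 32 with array weights, 38 with both left out and 0 to 16 with each left out. With the 6 libraries alone 2.67% of all tested genes were called higher there and 5.13% lower. In YSGr against YSGnr (16) they were 7 with median scaling, 0 with the 6 libraries alone, 51 with array weights, 49 with both left out and 0 to 44 with each left out. The cause of these shifts was not tested. The array weights stopped before reaching their convergence tolerance, and they called 30.8% of all tested genes higher and 32.5% lower in YSGr against SG, 24.0% and 24.0% in YSGnr against SG and 32.7% and 32.6% in YSGr against YSGnr. With both libraries left out these shares were 23.5% and 26.1%, 26.6% and 26.3%, and 32.0% and 32.7%, so that calls were also more frequent over all genes under these 2 settings.

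The labels do not say whether replicate numbers pair the libraries. Deviations of same-numbered libraries correlated between -0.23 and 0.24, and those of differently numbered libraries between -0.25 and 0.23. With 3 libraries a group, these correlations cannot exclude a pairing. With the replicate block, 19 members rose in YSGr against YSGnr, where 4.64% of all tested genes were called higher. With 3 libraries a group, 1 of them at 3.53 M usable reads, differences under about 1 log2 unit were often not separable from the spread between libraries.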
